A study of Mus musculus with 6 samples.

Results

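The proteasome is the protease that degrades most ubiquitin-tagged proteins in the cell, and its subunits and helper proteins are encoded by the Psm genes. The genes described here are all those in the deposited count table whose symbol begins with Psma, Psmb, Psmc, Psmd, Psme, Psmf or Psmg followed by a number. The rule found 50 of the 49315 genes in the table, and 4 further symbols marked as pseudogenes were left out. By the known role of their products, 16 of the 50 belong to the core particle, 27 to the regulatory particles or to assembly factors, and 5 to the immunoproteasome (Psmb8, Psmb9, Psmb10, Psme1 and Psme2). The remaining 2, Psmc3ip and Psme2b, carry a matching symbol but have no assigned proteasome role: Psmc3ip encodes a factor of meiotic recombination and Psme2b resembles a copy of Psme2.

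RNA came from the mid-ventricular heart of adult mice in 2 groups of 3, labelled TET2KO and WT. TET2KO mice lack Tet2, a DNA demethylase, in endothelial cells only, and the sources used here do not name the driver of the deletion. Both groups had received Angiotensin II, a hormone that raises blood pressure, at 1.0 mg/kg/day for 28 days from implanted pumps, so no untreated heart enters the comparison. Poly(A) RNA was sequenced as read pairs of 150 nt, and the 3 replicates of a group are 3 animals by the study's design text.

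The core particle is a barrel of stacked rings. Outer rings of alpha subunits gate the entrance, and inner rings of beta subunits hold the cutting sites on Psmb5, Psmb6 and Psmb7. The regulatory particle caps the barrel: its base unfolds substrates with a ring of ATPases and its lid removes ubiquitin. Under interferon-gamma, and constantly in immune cells, Psmb8, Psmb9 and Psmb10 replace the standard cutting subunits, and the Psme1-Psme2 activator can dock in place of the usual cap. In the heart the proteasome clears damaged sarcomere proteins, and its subunit transcripts are abundant in cardiomyocytes.

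Library totals were 26810691 to 30418909 reads in the libraries labelled TET2KO and 22124844 to 26569073 in those labelled WT, and all 6 carry the same batch label. Tet2 itself went against the labels. It had 14.6, 8.01 and 10.4 CPM (reads relative to library size scaled with TMM factors) in the libraries labelled TET2KO, against 4.27, 4.33 and 3.08 CPM in those labelled WT, a log2 fold change of 1.49 ± 0.29 (SE, adjusted p = 0.0065) that was 0.27 ± 0.17 (adjusted p = 0.21) once the length trend described below was removed. The count covers the whole gene in whole tissue, and the sources used here do not say which exons were deleted, so groups are called by their labels throughout and every direction below rests on those labels. TET2KO replicate 2 lay nearest the WT libraries for each of the 14 constitutive core genes, so counts are given with and without it. Fewer cells of a type and less RNA per cell cannot be told apart in such bulk tissue.

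Most proteasome genes were lower in the libraries labelled TET2KO. Of the 50, 49 had enough reads to be tested, and 37 were lower, 4 were higher and 8 did not pass edgeR's quasi-likelihood test at a Benjamini-Hochberg adjusted p under 0.05. Over all 14370 genes tested, 62.9% passed, 33.4% higher and 29.4% lower, so that a call by itself is common in these libraries. The members' median log2 fold change of TET2KO over WT was -1.07, against 0.046 for all genes tested. The values of the groups did not overlap for 46 of the 49, against 73.5% of all genes. Without TET2KO replicate 2 the counts were 6 higher and 41 lower, as Psmd11 and Psme3 then passed as higher and Psma8, Psmc5, Psmd5 and Psmd12 as lower. Calls over all genes rose as well, to 5928 higher and 5250 lower, against 4806 and 4231 with all 6 libraries. The gene not tested was Psmb11, a catalytic subunit made in thymic epithelium, with 1, 2 and 0 reads in the libraries labelled TET2KO and 0, 3 and 0 reads in those labelled WT.

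**Figure D1:**
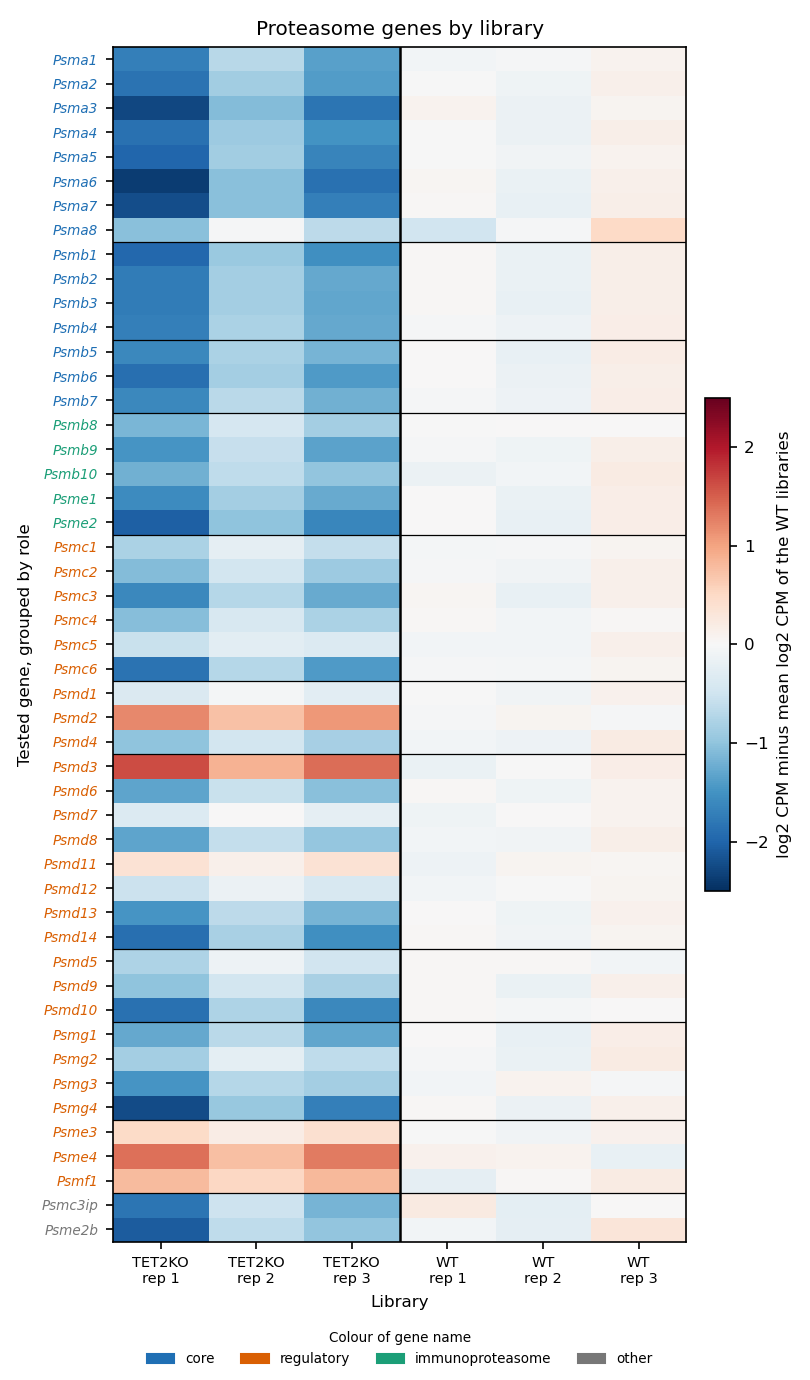
Heat map of the 49 tested proteasome genes (rows, grouped by role) in the 6 libraries (columns, TET2KO left of WT). Colour is the log2 CPM of the library minus the mean log2 CPM of the WT libraries. Rows are mostly blue in the 3 TET2KO columns, palest in replicate 2, while Psmd2, Psmd3, Psme4 and Psmf1 are red there.

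The size of these differences followed transcript length. Across 14346 tested genes with a known length, the log2 fold change increased with the length of the longest transcript (Spearman's rho 0.612, a description across genes, which are not independent replicates). Proteasome transcripts are short, with a median of 1440 nt, against 2997 nt for all genes tested. In simulated data with such a trend added, the test on counts as they stand called many unchanged genes and the test with the trend removed called few. The added trend was the one fitted to these data, so that outcome was built in and is no evidence about these genes. An as-counted call by itself cannot be told apart from the length trend. The members are also described after removal of a smooth trend on transcript length and GC content. Its removal also takes away any real difference that follows length. With the trend removed, 19 members were lower, 8 higher and 22 did not pass, where 46.2% of all genes passed (21.9% higher and 24.3% lower). Of the 37 genes lower as counted, 18 remained lower, 18 no longer passed and Psmg2 passed as higher. Among those that no longer passed, Psmc1, Psmg3 and Psme2b also changed sign (0.2, 0.0032 and 0.02). Without TET2KO replicate 2 the trend-removed counts were 8 higher and 24 lower, where 27.8% of all genes were higher and 30.5% lower. They were 4 and 12 without WT replicate 1 (13.3% and 14.9% of all genes), 4 and 10 without WT replicate 3 (14% and 14.5%), and 3 and 10 without TET2KO replicate 3 (13.7% and 13.7%). In all 6 fits that left out a library, 9 of the 19 lower calls held, those of Psma3, Psma6, Psma7, Psmb1, Psmc3, Psmd8, Psmd9, Psmd13 and Psme2, as did the higher calls of Psmd2, Psmd3 and Psmd7.

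**Figure D2:**
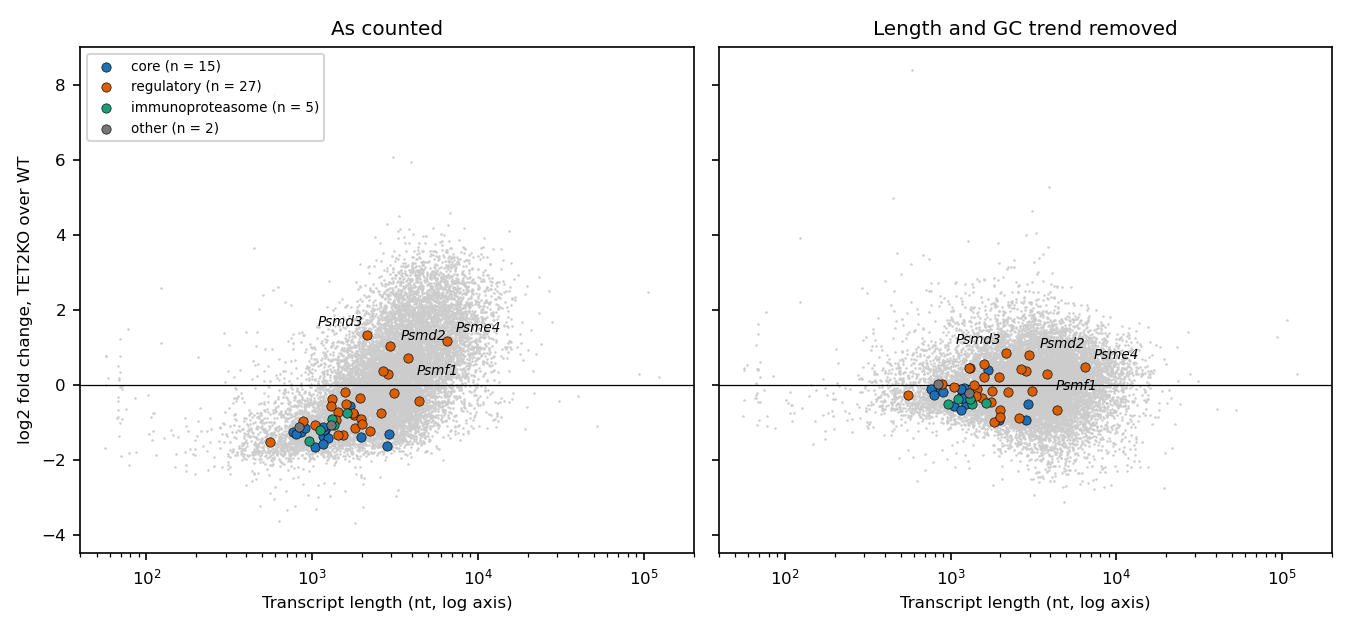
Log2 fold change of TET2KO over WT (y axis) against the length of the longest transcript in nt (x axis, log scale), as counted on the left and with the length and GC trend removed on the right. Grey points are all tested genes and coloured points the proteasome genes by class. On the left the grey cloud climbs with length (rho 0.612 over 14346 genes) and most proteasome genes sit low at its short end; on the right the cloud is level.

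The scaling of the libraries moved all genes together. With total library size in place of TMM, the median of all genes was 0.47 and 74.2% of calls were higher, against 0.046 and 53.2% with TMM (6534 higher and 2270 lower against 4806 and 4231). With limma on log2 TPM, the authors' length-scaled unit, it was 0.41 with a pseudocount of 1 and 0.64 with 0.1, and 79.6% and 79.4% of calls were higher. The medians of the core, regulatory and immunoproteasome genes stayed below 0 and below that of all genes in each of these fits.

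All 14 constitutive subunits of the core particle were lower in the libraries labelled TET2KO, by a log2 fold change of -1.66 for Psma6 to -1.12 for Psmb7. Each of the 14 remained lower when any one of the 6 libraries was left out, and also under total library size and on TPM with a pseudocount of 1 or 0.1. Their median was -1.32. Among all genes 29.4% were lower with all 6 libraries. After trend removal the median of the 15 tested core genes was -0.27, and 7 remained lower, 0 were higher and 8 did not pass. Among all genes 24.3% were then lower and 21.9% higher. The count of lower core genes was 5 without WT replicate 3 or TET2KO replicate 3, where 14.5% and 13.7% of all genes were lower. It was 9 without TET2KO replicate 2, where 30.5% of all genes were lower.

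Psma3, an alpha-ring subunit encoded at chr12:70974621-70996347 (GRCm38, plus strand), had 78.9, 182 and 108 CPM in the libraries labelled TET2KO, against 407, 345 and 401 CPM in those labelled WT. All 3 TET2KO values lay below all WT values, and replicate 2 was the highest of them. Psma3 was 3.13-fold lower (log2 fold change -1.64 ± 0.31, adjusted p = 0.0065), and with the trend removed it was still lower, at -0.94 ± 0.15 (adjusted p = 0.004). Psma4, whose tail in yeast helps close the gate of the barrel, had 89.9, 175 and 116 CPM in TET2KO libraries, against 326, 299 and 365 CPM in WT libraries. The groups did not overlap and Psma4 was 2.61-fold lower (-1.38 ± 0.27, adjusted p = 0.0065), but -0.27 ± 0.1 with the trend removed did not pass (adjusted p = 0.058). Psma7, an alpha subunit that can be replaced by Psma8 in germ cells, had 92.7, 210.2 and 133 CPM in TET2KO libraries and 442, 381 and 479 CPM in WT libraries. It was 2.99-fold lower as counted (log2 -1.58 ± 0.31, adjusted p = 0.0065) and at -0.69 ± 0.14 with the trend removed (adjusted p = 0.0057), again without overlap between the groups.

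In the other alpha genes, too, replicate 2 was the highest of the TET2KO libraries and replicate 1 the lowest. Psma6 gave the deepest log2 fold change of the members, -1.66 ± 0.34, with 99.1, 250.2 and 142 CPM in TET2KO libraries and 531, 459 and 566 CPM in WT libraries. With the trend removed Psma6 was at -0.57 ± 0.13 (adjusted p = 0.0096, merged length -0.66). Psma2 and Psma5 were lower by both estimates, with trend-removed log2 fold changes of -0.51 each. Psma1 was lower as counted (-1.2) but not with the transcript-length trend removed (-0.093). On merged exon length Psma1 was lower (-0.58, adjusted p = 0.015). Psma8, the germ-cell paralogue, was rare at 1.94 to 3.94 CPM in TET2KO libraries and 2.88 to 5.66 CPM in WT libraries. Its ranges overlapped and it passed neither test, except as counted without TET2KO replicate 2 (-0.86, adjusted p = 0.014).

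The 4 structural beta genes were lower too. Psmb3 had 61.6, 114 and 84.5 CPM in TET2KO libraries, against 210.4, 183 and 229.7 CPM in WT libraries. Psmb2 ran in parallel, at 64.3, 119.8 and 89.2 CPM in TET2KO libraries and 220.3, 194 and 239 CPM in WT libraries. Neither gene's groups overlapped, yet with the trend removed their log2 fold changes of -0.12 and -0.13 did not pass. Psmb1 had 102, 208 and 137 CPM in TET2KO libraries and 402, 353 and 436 CPM in WT libraries. Its groups did not overlap and it was lower by both estimates, -1.41 ± 0.28 as counted and -0.95 ± 0.17 with the trend removed (adjusted p = 0.0044). Psmb4 showed the smallest difference of the 4 as counted, at -1.22. With the trend removed it lay between Psmb1 and the other genes, at -0.37. It passed by both estimates, the second in 1 of the 6 fits that left out a library.

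The length used for a gene weighs on these trend-removed values. The longest transcripts annotated for Psma2, Psma3 and Psmb1 have 2911, 2846 and 1970 nt, against coding sequences of 702, 765 and 609 nt, and which transcript these hearts expressed was not tested. When the trend was fitted on merged exon length, 12 of the 14 constitutive core genes were lower instead of 7. All members together came to 28 lower and 5 higher, where 3785 of all genes were lower and 3443 higher.

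The 3 cutting subunits of the standard core were lower as counted and did not pass once the trend was removed. Psmb5 carries the chymotrypsin-like site that clinical proteasome inhibitors bind, and is encoded at chr14:54614119-54618022. It had 51, 90 and 69.9 CPM in TET2KO libraries, against 156, 137 and 176 CPM in WT libraries, which is 2.22-fold lower (-1.15 ± 0.24, adjusted p = 0.0066). Psmb6, the caspase-like subunit at chr11:70525367-70527858, had 97.6, 200 and 135 CPM in TET2KO libraries and 364, 323 and 396 CPM in WT libraries, 2.5-fold lower (-1.32 ± 0.28, adjusted p = 0.0068). In both genes the groups did not overlap and TET2KO replicate 2 stood nearest WT. Psmb7, the trypsin-like subunit at chr2:38588036-38644087, had 128, 245 and 172 CPM in TET2KO libraries and 384, 361 and 439 CPM in WT libraries, 2.17-fold lower (-1.12 ± 0.26, adjusted p = 0.0089). After trend removal the 3 genes were at -0.2, -0.27 and -0.12, with adjusted p of 0.16, 0.078 and 0.39. On merged exon length Psmb6 and Psmb7 passed as lower, at -0.95 each, and Psmb5 did not, at -0.17.

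Promoters are shown for a pair of alpha genes and a beta gene that were lower together, and for Psmd2, the base subunit that was higher. For Psma6 RefSeq gives 2 starts, and the windows of both are shown: the outer at the start of the annotated gene and the inner within it. Which start these hearts used was not tested. Each is the stretch of 250 bases before the annotated start of transcription, from RefSeq on GRCm38.p6, written 5′ to 3′ on the gene's strand. Capitals mark the motifs searched on both strands, CCAAT in the outer Psma6 window and in Psma7 (as ATTGG where it lies on the other strand) and the antioxidant response core TGACNNNGC in Psmb6. None of the motifs searched stood in the inner Psma6 window or in that of Psmd2. The intervals are chr12:55383972-55384221 and chr12:55398575-55398824 (plus strand) for Psma6, chr2:180042465-180042714 (minus strand) for Psma7, chr11:70525107-70525356 (plus strand) for Psmb6 and chr16:20651402-20651651 (plus strand) for Psmd2.
Psma6 (outer): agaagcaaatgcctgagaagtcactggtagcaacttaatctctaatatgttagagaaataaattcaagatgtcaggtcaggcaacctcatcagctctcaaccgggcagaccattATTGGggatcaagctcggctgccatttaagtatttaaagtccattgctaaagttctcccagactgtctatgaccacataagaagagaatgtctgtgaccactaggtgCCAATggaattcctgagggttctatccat
Psma6 (inner): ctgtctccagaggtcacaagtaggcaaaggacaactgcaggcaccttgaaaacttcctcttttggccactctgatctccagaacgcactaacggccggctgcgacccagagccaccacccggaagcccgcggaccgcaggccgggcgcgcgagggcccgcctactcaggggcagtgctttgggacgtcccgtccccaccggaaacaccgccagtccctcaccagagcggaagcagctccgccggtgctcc
Psma7: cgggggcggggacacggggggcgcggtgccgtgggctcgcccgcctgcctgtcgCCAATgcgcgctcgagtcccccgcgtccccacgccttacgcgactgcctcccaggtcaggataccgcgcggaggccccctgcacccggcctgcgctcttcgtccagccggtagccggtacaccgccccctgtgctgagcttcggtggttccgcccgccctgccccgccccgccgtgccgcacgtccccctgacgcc
Psmb6: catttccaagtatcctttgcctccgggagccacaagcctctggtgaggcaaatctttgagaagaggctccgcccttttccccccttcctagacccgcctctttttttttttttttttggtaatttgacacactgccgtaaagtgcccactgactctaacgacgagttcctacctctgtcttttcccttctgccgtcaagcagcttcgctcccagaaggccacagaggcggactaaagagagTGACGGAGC
Psmd2: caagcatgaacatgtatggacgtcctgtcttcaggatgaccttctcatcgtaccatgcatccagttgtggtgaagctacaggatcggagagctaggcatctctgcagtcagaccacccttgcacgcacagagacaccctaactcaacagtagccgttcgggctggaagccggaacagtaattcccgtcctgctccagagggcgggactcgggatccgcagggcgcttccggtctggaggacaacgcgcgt

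Of the 50 members, 42 had a window of this kind, 3 of them more than 1, and a motif in any of a gene's windows was counted. CCAAT stood in 15 of the 42 (35.7%), against 33.8% of all 32851 windows of the same length, and 7 of the 15 were core genes. TGACNNNGC, the core of the element read by Nfe2l1 and Nfe2l2, stood in 5 (11.9%, against 10.2%): Psmb5, Psmb6, Psmc6, Psmd9 and Psmd12. The core of the interferon-stimulated response element stood in 3 (7.14%, against 2.98%), Psmb3, Psmd4 and Psmd9, and the gamma-activated site TTCNNNGAA in 2 (4.76%, against 7.02%), Psmb8 and Psmg1. These are counts of letters in the window and not of bound sites.

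The regulatory genes split. Of 27 tested, 16 were lower, 4 were higher and 7 did not pass, where 29.4% of all genes were lower and 33.4% higher. The regulatory median log2 fold change was -0.73, with a range from -1.53 to 1.33. After trend removal the median was -0.065, with 7 lower, 8 higher and 12 not past the test. Among all genes 24.3% were then lower and 21.9% higher. With the trend fitted on merged exon length the median was -0.33, with 11 lower and 5 higher, against 3785 and 3443 of all genes. With total library size 9 were lower and 6 higher, against 2270 and 6534 of all genes. With limma on log2 TPM, where unit and test both differ, 7 were lower and 8 higher with a pseudocount of 1 or 0.1. Over all genes these were 1832 and 7166 with 1, and 1882 and 7270 with 0.1. Without TET2KO replicate 2 the counts were 19 lower and 6 higher as counted, where 5250 of all genes were lower and 5928 higher. They were 10 lower and 3 higher without TET2KO replicate 3, where 2479 of all genes were lower. Without WT replicate 3 they were 10 lower and 4 higher, where 3370 of all genes were higher.

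Among the 6 ATPases of the base, which thread the substrate into the barrel, 5 were lower. Psmc3 had 204, 380.1 and 261 CPM in TET2KO libraries, against 641, 549.5 and 684 CPM in WT libraries, 2.22-fold lower (-1.15 ± 0.26, adjusted p = 0.0083), and was the only ATPase lower with the transcript-length trend removed (-0.99 ± 0.19, adjusted p = 0.0051). Psmc6 had 81.3, 178 and 109 CPM in TET2KO libraries and 286, 281 and 305 CPM in WT libraries (-1.24 ± 0.29, adjusted p = 0.009). Both genes separated the groups without overlap, Psmc6 losing its call with the trend removed (-0.21 ± 0.12). Psmc2 had 95.1, 147 and 108 CPM in TET2KO libraries and 197, 191 and 220.3 CPM in WT libraries (-0.8 ± 0.21, adjusted p = 0.013), and its adjusted p was 0.057 without WT replicate 3 and 0.063 without TET2KO replicate 3. Psmc4 and Psmc1 were also lower, at -0.73 and -0.52. Of the 6 fits that left out a library, Psmc4 passed in 3 (not without WT replicate 1 or 3 or TET2KO replicate 3) and Psmc1 in 1. Psmc5 did not pass as counted (-0.38, adjusted p = 0.072) and was higher with the trend removed (0.44 ± 0.12, adjusted p = 0.015), a call that held in 2 of the 6 fits.

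The non-ATPase base subunits went separate ways. Psmd2, the scaffold to which ubiquitin shuttles dock, is encoded at chr16:20651652-20663414 and had 184, 132 and 170.3 CPM in TET2KO libraries, against 78.5, 83.4 and 77.8 CPM in WT libraries. Every TET2KO value exceeded every WT value, and Psmd2 was 2.03-fold higher (1.02 ± 0.18, adjusted p = 0.0065) and remained so with the trend removed (0.8 ± 0.12, adjusted p = 0.004). Psmd4, a built-in ubiquitin receptor, had 92.5, 134 and 104 CPM in TET2KO libraries and 176, 169.6 and 213 CPM in WT libraries. It was 1.69-fold lower (-0.76 ± 0.2, adjusted p = 0.013; trend removed -0.47 ± 0.13, adjusted p = 0.017), with an adjusted p of 0.063 without WT replicate 3 and 0.065 without TET2KO replicate 3. Psmd1, the other large scaffold, had overlapping groups and passed neither test (-0.22 and -0.17). Other length corrections called it in opposite directions. It was lower on merged exon length (-0.69, adjusted p = 0.017). With limma on log2 TPM it was higher, at 0.4 with a pseudocount of 1 and 0.41 with 0.1 (adjusted p = 0.018 and 0.019).

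In the lid, 1 of 8 genes was higher and 4 were lower as counted, and 3 were higher and 3 lower with the trend removed. Psmd3, a horseshoe-shaped lid subunit at chr11:98682554-98695979, had 108, 63.4 and 91.9 CPM in TET2KO libraries, against 30.9, 34.7 and 39 CPM in WT libraries. It showed the highest fold among the members, 2.52-fold (1.33 ± 0.22, adjusted p = 0.0065; trend removed 0.85 ± 0.14, adjusted p = 0.004), with replicate 2 again nearest WT. When the trend was fitted on merged exon length the call was lost, at 0.018 (adjusted p = 0.92). The gene's merged exons total 4967 nt, against 2148 nt for the longest transcript. Psmd14, the deubiquitinase that cuts ubiquitin off incoming substrates, had 45.2, 95.2 and 57.7 CPM in TET2KO libraries and 171, 156 and 174 CPM in WT libraries. It was 2.53-fold lower (-1.34 ± 0.28, adjusted p = 0.0067; trend removed -0.35 ± 0.11, adjusted p = 0.032), and the trend-removed call held in 1 of the 6 fits that left out a library. Psmd13, a lid subunit, had 69, 122 and 86.2 CPM in TET2KO libraries and 192, 177 and 207 CPM in WT libraries (-1.05 ± 0.23, adjusted p = 0.0077; trend removed -0.87 ± 0.17, adjusted p = 0.0052). Psmd3 lay wholly above the WT libraries, and Psmd14 and Psmd13 wholly below them. Psmd8 was lower by both estimates (-0.93 and -0.68). Psmd6 was lower as counted (-0.95) but not with the transcript-length trend removed (-0.0044). On merged exon length Psmd6 was lower (-0.49, adjusted p = 0.023). Psmd7, the partner of Psmd14, and Psmd11 did not pass as counted and were higher with the trend removed (0.54 and 0.37), though Psmd11 was at -0.14 when merged exon length was used and its call held in 1 of the 6 fits that left out a library. Psmd12 passed neither test.

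Assembly factors of both particles were mostly lower as counted. Psmd10 (gankyrin), a chaperone of the base, had 12.1, 25.7 and 14.4 CPM in TET2KO libraries and 45.1, 42.8 and 44.2 CPM in WT libraries, 2.53-fold lower (-1.34 ± 0.28, adjusted p = 0.0068; trend removed -0.3 ± 0.12, adjusted p = 0.07). Psmd9, another base chaperone, had 19.7, 28.6 and 22.5 CPM in TET2KO libraries and 40.6, 35.4 and 43 CPM in WT libraries (-0.75 ± 0.19, adjusted p = 0.011; trend removed -0.89 ± 0.17, adjusted p = 0.0052). Neither gene's groups overlapped. Psmd5, also a base chaperone, was lower with the trend removed alone (-0.44, then -0.67).

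The core-particle chaperones Psmg1 to Psmg4, which build the alpha ring, were all lower as counted. Psmg1 had 15.9, 24.2 and 15.8 CPM in TET2KO libraries and 39.3, 34.3 and 43.3 CPM in WT libraries (-1.07 ± 0.21, adjusted p = 0.0065). Psmg4 had 6.34, 15.5 and 9.15 CPM in TET2KO libraries and 30.3, 26.9 and 32.3 CPM in WT libraries, 2.89-fold lower (-1.53 ± 0.31, adjusted p = 0.0066). Psmg3 had 4.86, 8.21 and 7.53 CPM in TET2KO libraries and 12.8, 14.4 and 13.3 CPM in WT libraries (-0.97 ± 0.24, adjusted p = 0.011). All 3 separated the groups and none passed with the transcript-length trend removed, although Psmg3 was lower on merged exon length (-1.24). Psmg2, which pairs with Psmg1, had 17.3, 26.4 and 20.1 CPM in TET2KO libraries and 30.6, 28 and 35.9 CPM in WT libraries. Its CPM ranges did not overlap. It was the only member called in opposite directions, lower as counted (-0.57 ± 0.2, adjusted p = 0.04) and higher with the trend removed (0.44 ± 0.12, adjusted p = 0.015), and the first call held in 1 of the 6 fits that left out a library. On merged exon length the second call was lost (0.29, adjusted p = 0.083).

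The alternative activator Psme4 and the inhibitor Psmf1 were higher. Psme4, a large cap linked to degradation without ubiquitin, is encoded at chr11:30771726-30880361 and had 257, 167 and 242 CPM in TET2KO libraries, against 106, 105 and 86.6 CPM in WT libraries. The groups did not overlap and Psme4 was 2.24-fold higher (1.17 ± 0.22, adjusted p = 0.0065; trend removed 0.47 ± 0.11, adjusted p = 0.009). Psmf1, at chr2:151715812-151744186, had 16.7, 13.7 and 16.8 CPM in TET2KO libraries and 8.21, 9.81 and 11 CPM in WT libraries. Its rise of 1.63-fold (0.71 ± 0.19, adjusted p = 0.015) no longer passed with the trend removed (0.29 ± 0.15, adjusted p = 0.15), nor when WT replicate 1 or 2 or TET2KO replicate 3 was left out (adjusted p = 0.076, 0.057 and 0.057). Psme3, a nuclear activator, passed with the trend removed alone (0.35, adjusted p = 0.073, then 0.41, adjusted p = 0.027), and in 1 of the 6 fits that left out a library. The longest transcripts of Psme4 and Psmf1 have 6491 and 3809 nt. That of Psme3 has 2664 nt, against a median of 2997 nt for all genes tested.

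**Figure D3:**
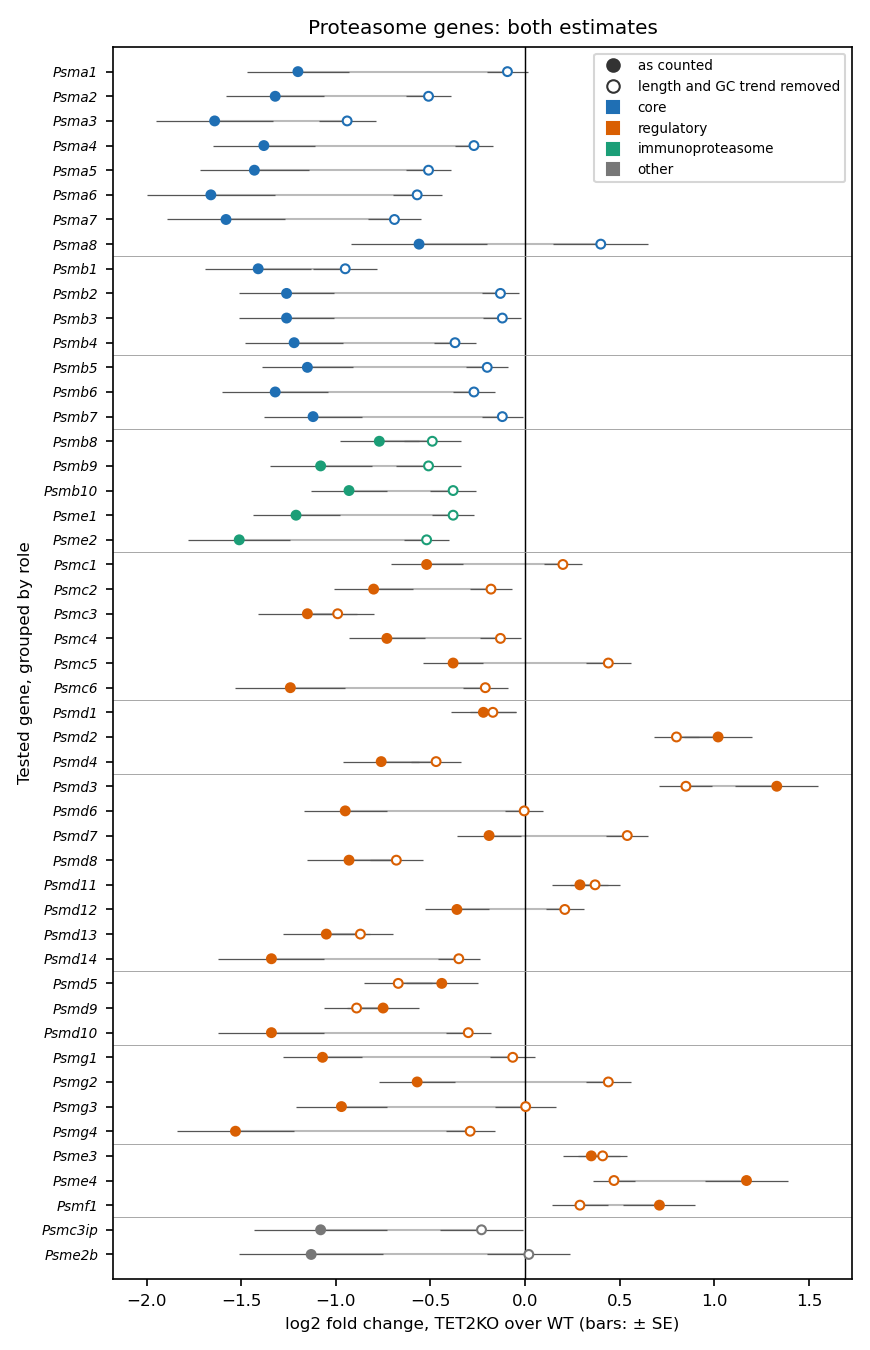
Log2 fold change of TET2KO over WT for the 49 tested proteasome genes, as counted (filled) and with the length and GC trend removed (open), with bars of ± 1 SE. Removing the trend moved the 14 constitutive core genes from between -1.66 and -1.12 to between -0.95 and -0.093, and kept Psmd2, Psmd3 and Psme4 above 0.

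The 5 immunoproteasome genes were lower by both estimates. As counted their log2 fold changes ran from -1.51 to -0.77 (median -1.08), and with the trend removed from -0.52 to -0.38 (median -0.49), with 5 of 5 lower each time. Among all genes 29.4% were lower as counted and 24.3% with the trend removed. With total library size 3 of 5 passed as lower, and with limma on log2 TPM (pseudocount 1 or 0.1) 2 of 5. Over all 14370 genes 2270 were lower with total library size, and 1832 and 1882 with limma at pseudocounts of 1 and 0.1. Left-out libraries changed the count: as counted it was 4 of 5 without WT replicate 1, 2 or 3 and 3 of 5 without TET2KO replicate 3. In that last fit 2479 of all genes were lower, against 4231 with all libraries. The trend-removed count was 5 when TET2KO replicate 2 was left out, 2 when TET2KO replicate 1 or WT replicate 1 or 2 was left out, and 1 when replicate 3 of either group was left out. Without TET2KO replicate 2, 30.5% of all genes were lower. Without TET2KO replicate 1, WT replicate 1 and WT replicate 2 the shares were 17.3%, 14.9% and 17.6%. They were 14.5% without WT replicate 3 and 13.7% without TET2KO replicate 3.

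Psme2 and Psme1 form the activator ring and lie near each other at chr14:55587441-55591113 and chr14:55578123-55581529. Psme2 had 39.1, 79.8 and 52 CPM in TET2KO libraries, against 163, 142 and 181 CPM in WT libraries, 2.85-fold lower (-1.51 ± 0.27, adjusted p = 0.0065; trend removed -0.52 ± 0.12, adjusted p = 0.0086). Psme1 had 117, 195 and 146 CPM in TET2KO libraries and 353, 310.3 and 391 CPM in WT libraries, 2.31-fold lower (-1.21 ± 0.23, adjusted p = 0.0065; trend removed -0.38 ± 0.11, adjusted p = 0.018). For both genes every TET2KO library was below every WT library. The 3 inducible cutting subunits were separated likewise. Psmb10, at chr8:105935735-105938444, had 57.7, 85 and 66.1 CPM in TET2KO libraries and 119.8, 125 and 153 CPM in WT libraries, 1.91-fold lower (-0.93 ± 0.2, adjusted p = 0.0073; trend removed -0.38 ± 0.12, adjusted p = 0.026). Psmb9, at chr17:34181987-34187764 beside Tap1, had 5.83, 10.8 and 6.35 CPM in TET2KO libraries and 15.7, 15 and 17.8 CPM in WT libraries, 2.11-fold lower (-1.08 ± 0.27, adjusted p = 0.011; trend removed -0.51 ± 0.17, adjusted p = 0.036). Psmb8, at chr17:34197721-34201454, had 10.7, 17.7 and 13.1 CPM in TET2KO libraries and 23.4, 23.7 and 23.7 CPM in WT libraries, 1.71-fold lower (-0.77 ± 0.21, adjusted p = 0.015; trend removed -0.49 ± 0.15, adjusted p = 0.028). Psmb8 was the least secure of the 5: its adjusted p was 0.051 to 0.066 when 1 WT library or TET2KO replicate 3 was left out.

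The balance of inducible to standard cutting subunits was read as a ratio of TPM, the deposited unit that corrects for gene length. Psmb8 came to 6.69, 6.28 and 5.94% of Psmb5 in the libraries labelled TET2KO, against 4.79, 5.53 and 4.28% in those labelled WT. The groups did not overlap, with a log2 difference of 0.38 (exact two-sided permutation p = 0.1, the smallest that 3 against 3 libraries allow, adjusted 0.15 over the 3 ratios). Psmb9 came to 3.05, 2.76 and 2.41% of Psmb6 in TET2KO libraries and 2.21, 2.38 and 2.29% in WT libraries, a log2 difference of 0.25 (exact permutation p = 0.1, adjusted 0.15). Psmb10 came to 90.7, 69.5 and 77.2% of Psmb7 in TET2KO libraries and 62.6, 69.6 and 70.1% in WT libraries, with overlap between the groups (0.22, exact permutation p = 0.3, adjusted 0.3). With the length and GC trend removed, the differences changed sign, to -0.31, -0.25 and -0.26 (exact permutation p = 0.2, 0.1 and 0.1), so no direction can be drawn for this balance. In TPM, Psmb10 came to 62.6 to 90.7% of its standard partner in every library, while Psmb8 and Psmb9 were scarce beside theirs. Such levels depend on the length used for each gene. Merged exons of Psmb10 and Psmb7 total 1705 and 3421 nt, and their longest transcripts have 1311 and 1160 nt. Without division by length, Psmb10 had 57.7, 85 and 66.1 CPM in TET2KO libraries, against 128, 245 and 172 CPM for Psmb7. In WT libraries Psmb10 had 119.8, 125 and 153 CPM, against 384, 361 and 439 CPM.

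**Figure D4:**
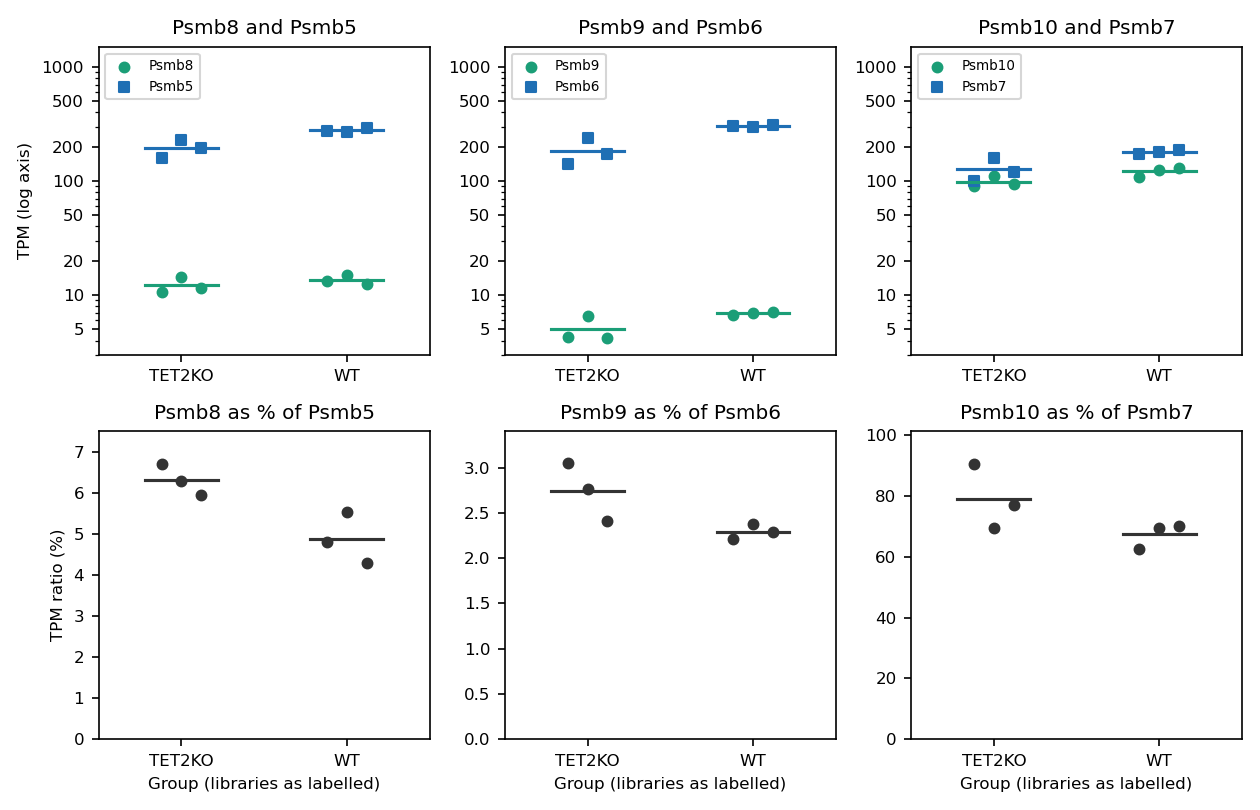
Top: TPM (log axis) of each inducible cutting subunit (circles) and the standard subunit it replaces (squares) in the 3 libraries of each group, TET2KO left and WT right, with group means as lines. Bottom: the ratio of the pair in percent. On the TPM scale, which depends on the length used for each gene, Psmb8 and Psmb9 lie far below their partners and Psmb10 nearer its own. The Psmb8 ratios of 5.94 to 6.69% in TET2KO lie above the 4.28 to 5.53% in WT.

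Immune cells are a main site of these inducible genes, and values of leukocyte markers are given beside them. Summed over 23 markers they came to 359 to 528 CPM in the libraries labelled TET2KO, against 767 to 897 CPM in those labelled WT. Without Lyz2, a lysozyme of macrophages and the marker with the highest CPM in every library, the sums were 239 to 252 CPM in TET2KO libraries and 270.4 to 291 CPM in WT libraries. Of the 16 markers tested, 7 were lower and 3 higher, with a median log2 fold change of -0.49. With the trend removed 2 were lower and 3 higher, with a median of 0.071. The shares of all genes were 29.4% lower and 33.4% higher as counted, and 24.3% and 21.9% with the trend removed. Lyz2 itself had 119, 276 and 165 CPM in TET2KO libraries and 611, 497 and 595 CPM in WT libraries (-1.6; trend removed -0.71). Ptprc (CD45), shared by leukocytes, was at 6.45, 6.74 and 6.07 CPM in TET2KO libraries and 9.17, 6.25 and 5.21 CPM in WT libraries, with overlap and no call (-0.1, adjusted p = 0.74). Cd74, the invariant chain of antigen-presenting cells, was higher (1.13, adjusted p = 0.0065; trend removed 1.6), and 9 of the 23, among them Cd3e, Cd8a and Nkg7, stayed under 1 CPM in every library. Red-cell genes separated the groups further: the summed markers came to 165 to 741 CPM in TET2KO libraries and 1555 to 7038 CPM in WT libraries, and all 5 tested were lower, at -3.62 for Hbb-bs to -2.65 for Alas2, and 5 of 5 again with the trend removed (median -2.28). Their part in the proteasome results was not tested.

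Levels can be compared between genes on the TPM scale. In libraries labelled TET2KO the medians of the 14 constitutive core subunits were 122, 199 and 148 TPM, against 251, 253 and 258 TPM in those labelled WT. The medians of the 17 subunits of the regulatory base and lid were 82.7, 104 and 88.6 TPM in TET2KO libraries and 94.4, 98.3 and 89.7 TPM in WT libraries, which overlapped. The ratio of the core median to the regulatory median was accordingly 1.48, 1.91 and 1.67 in TET2KO libraries and 2.66, 2.57 and 2.88 in WT libraries, a comparison that the length trend also enters. Psma6 was the most abundant core transcript in every WT library, at 668, 639 and 668 TPM, against 217, 453 and 279 TPM in TET2KO libraries. In TET2KO replicates 1 and 3 Psmb1 took its place at the top, with 265 and 319 TPM. Among regulatory subunits, Psmd3 was the scarcest in each WT library, at 9.66 to 12 TPM, while Psmd11 was the scarcest in each TET2KO library, at 21.1 to 30.2 TPM.

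The relation with length was also described within classes. Over the 47 members with a proteasome role, Spearman's rho between transcript length and log2 fold change was 0.58 as counted and 0.05 with the trend removed. Within the 27 regulatory genes it was 0.61, and within the 15 core genes it was -0.13. These are descriptions over genes that share the same 6 libraries.

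Neighbouring pathways gave a mixed picture. The shares of all genes to set beside their counts were 33.4% higher and 29.4% lower as counted. With the trend removed these shares were 21.9% and 24.3%. Of the 10 genes of the COP9 signalosome, which resembles the lid and removes the modifier Nedd8, 9 were lower and 0 higher (median -1; trend removed -0.52, with 8 lower). Cops9 had 42.6, 111 and 65.4 CPM in TET2KO libraries and 282, 233 and 295 CPM in WT libraries (-1.89 ± 0.34, adjusted p = 0.0065), and Cops5, its catalytic subunit, and Cops3 were lower at -1.27 and -1.44. All 3 separated the groups. Of the 8 genes of the CCT chaperonin, a ring that folds actin and tubulin, 5 were lower and 0 higher (median -0.7; trend removed -0.36, 4 lower and 2 higher), led by Cct3, Cct4 and Cct6a at -0.97, -1.18 and -0.86.

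Of 19 tested partners, which comprise ubiquitin shuttles, proteasome-bound enzymes and transcription factors of proteasome genes, 11 were higher and 3 lower (median 0.53). With the trend removed 10 were higher and 3 lower (median 0.31). Among all genes 33.4% were higher and 29.4% lower as counted, and 21.9% and 24.3% with the trend removed. Nfe2l1, the factor that induces proteasome genes when proteasome activity is short, had 393, 184 and 346 CPM in TET2KO libraries, against 88.4, 98.1 and 87 CPM in WT libraries (1.76 ± 0.29, adjusted p = 0.0065; trend removed 0.31 ± 0.1). Ddi2, the protease that activates it, had 27.8, 10.4 and 22.8 CPM in TET2KO libraries and 5.18, 5.15 and 5.26 CPM in WT libraries (1.97 ± 0.35, adjusted p = 0.0065), and did not pass with the trend removed (0.31 ± 0.14). In both genes the groups lay apart. The shuttle factor Ubqln4 was higher by both estimates (1.6 and 0.54). Pomp, the chaperone that completes the core particle, was lower by both (-1.32 and -1.74) and was singled out after its values were seen.

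Among 11 genes of ubiquitin supply and substrate unfolding, 5 were lower and 3 higher (median -0.2). With the trend removed 3 were lower and 4 higher (median -0.0065). Here and for the ligases below, 29.4% of all genes were lower and 33.4% higher as counted. With the trend removed 24.3% were lower and 21.9% higher. Rps27a, a ubiquitin fused to a ribosomal protein, had 121, 268 and 168 CPM in TET2KO libraries and 536, 485 and 586 CPM in WT libraries (-1.53 ± 0.3, adjusted p = 0.0065; trend removed -0.35). Vcp, the unfoldase that pulls proteins from complexes, had 321, 143 and 251 CPM in TET2KO libraries and 83.6, 83.9 and 73.7 CPM in WT libraries (1.57 ± 0.29, adjusted p = 0.0065; trend removed 1.27 ± 0.22). Its cofactor Nploc4 was higher as well (1.98, trend removed 0.92). Of 12 ubiquitin ligases of heart muscle, 8 were higher and 0 lower (median 0.92), and 6 and 0 with the trend removed (median 0.45). With the trend fitted on merged exon length they were 8 higher and 2 lower. Nedd4, a ligase of membrane proteins, had 329, 113 and 231 CPM in TET2KO libraries and 36.6, 39.4 and 32.4 CPM in WT libraries (2.63 ± 0.37, adjusted p = 0.0065; trend removed 1.91 ± 0.24). Asb2 and Itch were higher by 1.59 and 1.07, and by 0.5 and 0.85 with the trend removed.

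Of 21 tested genes of antigen processing and the interferon-gamma response, 7 were higher and 2 lower (median -0.039). Among all genes 33.4% were higher and 29.4% lower. With the trend removed 5 were higher and 4 lower (median 0.016), where 21.9% of all genes were higher and 24.3% lower. Tap2, a peptide transporter that works with the immunoproteasome, had 29.1, 10.4 and 20.5 CPM in TET2KO libraries, against 3.55, 4.33 and 4.2 CPM in WT libraries (2.31 ± 0.37, adjusted p = 0.0065; trend removed 0.98 ± 0.18). Tapbp was higher by both estimates (1.75 and 0.74) and Stat2 as counted alone (0.95 and 0.016). The groups of these 3 genes did not overlap.

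**Figure D5:**
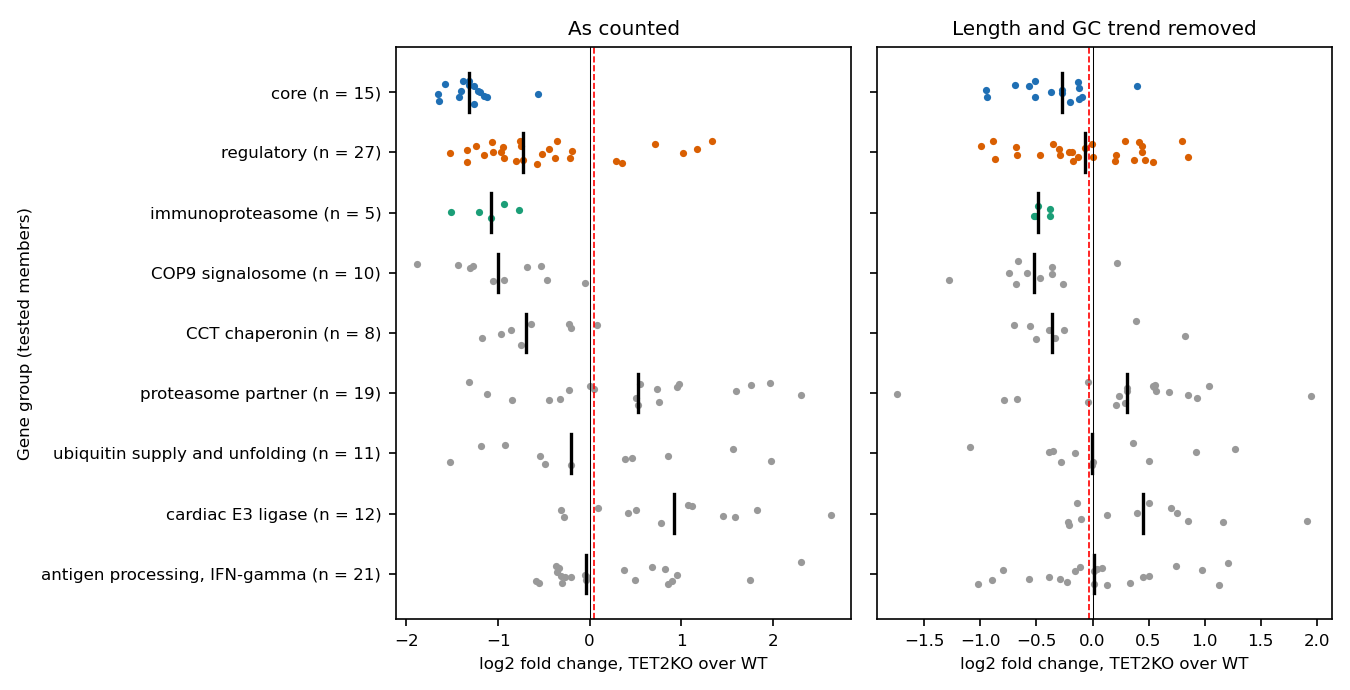
Log2 fold change of TET2KO over WT of each tested gene (points) in the 3 proteasome classes and 6 related gene lists, as counted (left) and with the length and GC trend removed (right). Black bars are list medians and the dashed line is the median of all tested genes (0.046 and -0.03). The core median of -1.32 moves to -0.27, the regulatory median of -0.73 to -0.065 and the immunoproteasome median of -1.08 to -0.49.

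The authors' deposited table listed 49 of the members, with 38 lower and 4 higher at an adjusted p under 0.05. Of these, the authors' deposited table gave a log2 fold change below -1 for 27 and above 1 for 2. The matching shares over all genes of that table are not given here, so these counts cannot be set against a background. In the edgeR fit as counted, 29.4% of all genes were lower and 33.4% higher.

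Some counts are uncertain because reads can be shared. A near-identical copy (95% identity or more over at least 150 nt) was found for 12 members. Psmb5 matched the pseudogene Gm3375 at 98.9% over 796 nt, and the copy held 5121 reads over the 6 libraries, against 16522 for Psmb5. Psme2 and Psme2b matched at 99.4% over 794 nt, with 15600 and 648 reads, so that values of Psme2b (1.43 to 3.94 CPM in TET2KO libraries and 5.23 to 7.45 CPM in WT libraries) cannot be told apart from misplaced reads of Psme2. The sources used here do not say whether counting used strand, and exons of Psmd13 overlap Sirt3, those of Psmc3ip overlap Mlx, those of Psme1 overlap Emc9, those of Psmc3 overlap Slc39a13, those of Psmb7 overlap Nek6 and those of Psmb9 overlap Tap1 on the other strand, with 9458, 5552, 4861, 1678, 1206 and 883 reads counted for those partners.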

How the data were processed

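Per the labels' protocols, poly(A) RNA of 3 TET2KO and 3 WT hearts was sequenced on an Illumina NovaSeq. Per the submitters' processing notes, the tools were DESeq2, featureCounts, Subread 1.5.2, STAR 2.5.2b and Trimmomatic 0.36, on build mm10 (GRCm38). No source used here states the annotation release or whether strand was used in counting. The authors deposited raw read counts per gene, without normalization, and TPM values scaled per library. Per the file headers, the authors' comparison table gives the log2 fold change (TET2KO over WT) with its p-values, beside a normalised signal per library. Every per-sample column matched a sample (0 unmatched).

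Counts were tested with edgeR 4.0.16 in R 4.3.3 (quasi-likelihood F-test, robust, TMM, filterByExpr, group only) over all genes passing the filter, with Benjamini-Hochberg adjustment. Standard errors were worked back from the F statistic. For the trend-removed fit, a smooth (mgcv 1.9.3, 6 basis functions for each axis) of log2 CPM deviation (prior count 2) on longest-transcript length and GC content entered as offsets for each library. Both fits were tested on simulated data: the as-counted fit made few false calls when no length trend was present and called many unchanged genes when one was added, where the trend-removed fit called few. The added trend was the one fitted to these data, so the outcome with it was built in. Positions and lengths are those of GENCODE M21 on GRCm38, where 49056 of 49315 gene IDs and all 50 members were found; 174 IDs have no symbol. Copies were searched with blastn 2.17.0. Promoters come from RefSeq (GRCm38.p6); Psma8, Psmb1, Psmb2, Psmb7, Psmc3, Psmd3, Psmd7 and Psmg2 were not among those used.

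Members, roles and lists were chosen with earlier results of these data known. Named genes are the 8 catalytic and activator genes, up to 3 members per role with the smallest p past the test, members called against the majority or in opposite directions, and up to 3 genes per list by smallest p. Alternatives were RLE size factors, total library size, no filter, DESeq2 1.42.0, limma-voom and limma 3.58.1 on log2(TPM + 1) and log2(TPM + 0.1), trends on transcript or merged exon length, a replicate block, and each library left out, the last also with the trend removed (added after seeing the data).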

Additional observations from a re-analysis of the deposited data

How the results depend on the processing

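The counts of proteasome genes, 4 higher and 37 lower, kept within 1.5 times under RLE size factors, DESeq2 (4 and 38), limma-voom, no filter (4 and 35) and total library size (6 and 26). They ranged over 3 to 6 higher and 27 to 41 lower when a library was left out. Calls over all genes then ranged over 3370 to 5928 higher and 2479 to 5250 lower. The proteasome counts moved to 8 higher and 19 lower with the length and GC trend removed and to 8 and 23 on log2(TPM + 1) and on log2(TPM + 0.1). The sample titles number the replicates without stating a pairing. Deviations of same-numbered libraries correlated at 0.0386, -0.231 and -0.0126, which with 3 libraries a group cannot settle whether samples were paired. With a replicate block the counts were 4 and 35, and with the block and the trend removed they were 7 and 14. With the trend removed and a library left out, a choice made after seeing the data, they ranged over 3 to 8 higher and 10 to 24 lower (12 without WT replicate 1), as calls over all genes ranged over 1973 to 4130 higher and 2008 to 4524 lower. The median log2 fold changes of the core, regulatory and immunoproteasome genes stayed below 0 in these settings; with the trend removed and a library left out their highest values were -0.26, -0.076 and -0.37. The cause of these movements was not tested.

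The ratios of Psmb8 over Psmb5, Psmb9 over Psmb6 and Psmb10 over Psmb7 kept their sign with each library left out (0.29 to 0.47, 0.17 to 0.34 and 0.12 to 0.31) and reversed with the trend removed (-0.31, -0.25 and -0.26). Further reversals concerned single genes. With the transcript trend removed, the merged exon trend removed, and the block with the trend removed, Psmc1 gave 0.2, 0.18 and 0.2, Psmc5 0.44, 0.53 and 0.44, Psmd7 0.54, 0.38 and 0.54, Psmg2 0.44, 0.29 and 0.44, and Lum 0.17, 0.26 and 0.17. Psmg3 gave 0.0032 with the trend removed and 0.0017 with the block added, and Psme2b 0.02 with the trend removed. On log2(TPM + 1) and log2(TPM + 0.1), Psmc1 gave 0.1 and 0.1, Psmd1 0.4 and 0.41, Psmd7 0.44 and 0.45, and Psmg2 0.056 and 0.057. With the trend removed and a library left out, values ranged over 0.15 to 0.2 for Psmc1, 0.39 to 0.52 for Psmc5, 0.46 to 0.57 for Psmd7 (0.49 and 0.55 between), 0.38 to 0.47 for Psmg2 (0.42 between) and 0.11 to 0.26 for Lum (0.13, 0.14 and 0.22 between). Over the same fits Psmg1 ranged over -0.14 to 0.00034, Psmg3 over -0.12 to 0.076 (0.018 and 0.068 without TET2KO replicates 2 and 1), Psme2b over -0.15 to 0.19 (0.09 without WT replicate 3) and Stat2 over -0.16 to 0.16 (-0.087 and -0.04 without WT replicates 1 and 2). With 3 libraries a group, depth limits chiefly Psmb11, Psma8, Psme2b and Psmc3ip; the lower calls of Psme2b and Psmc3ip held in 2 and 1 of the 6 as-counted fits that left out a library.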

Other observations

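Heart muscle genes held the highest levels: the 12 cardiomyocyte markers summed to 69622 to 75358 CPM in the libraries labelled TET2KO and 98034 to 118521 CPM in those labelled WT. Within the list, 6 genes were higher and 5 lower, and with the trend removed 7 and 2. Among all genes 33.4% were higher and 29.4% lower as counted, and 21.9% and 24.3% with the trend removed. Myh6, the adult myosin motor, had 12157, 1742 and 8877 CPM in TET2KO libraries, against 664, 633 and 787 CPM in WT libraries (log2 fold change 3.45 ± 0.64, adjusted p = 0.0065; trend removed 1.21 ± 0.26). Myl2, a myosin light chain, had 6438, 14726 and 9763 CPM in TET2KO libraries and 32845, 26808 and 36516 CPM in WT libraries (-1.64 ± 0.34, adjusted p = 0.0068; trend removed -0.54 ± 0.13), and Nkx2-5, a cardiac transcription factor, was higher at 1.81 (trend removed 1.26). TET2KO replicate 2 stood nearest WT for these genes as it did for the proteasome genes.

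Endothelial markers, which mark the cells targeted by the deletion, were higher in 8 of 12 cases and lower in 3 (median 1.33). With the trend removed these were 6 and 2 (median 0.53). Here and for the fibroblast markers below, 33.4% of all genes were higher and 29.4% lower as counted. With the trend removed 21.9% were higher and 24.3% lower. Cdh5, the endothelial cadherin, had 215, 46.1 and 138 CPM in TET2KO libraries and 12.6, 15 and 10.2 CPM in WT libraries (3.4 ± 0.53, adjusted p = 0.0065; trend removed 2.47 ± 0.36), with Pecam1 and Tie1 higher at 1.41 and 2.27 (trend removed 1.03 and 0.53). Of 10 fibroblast markers 4 were higher and 4 lower, and with the trend removed 2 and 1: Col1a1, the fibrillar collagen chain, had 116, 10 and 63.7 CPM in TET2KO libraries and 4.18, 4.62 and 4.82 CPM in WT libraries (3.8 ± 0.77, adjusted p = 0.0066; trend removed 1.29 ± 0.35, adjusted p = 0.016), a value of 3.06 as counted without TET2KO replicate 1, with the trend-removed call lost without WT replicate 1, while Lum and Tcf21 were lower as counted (-0.64 and -0.92) and did not pass with the trend removed. Neutrophil S100a8 and the globins Hbb-bt and Hba-a2 were lower at -3.23, -3.33 and -2.89 (trend removed -1.94, -2.28 and -1.74).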
